A study of Canis lupus familiaris and Dasypus novemcinctus and Ornithorhynchus anatinus with 3 samples.

Results

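DLX3, DLX5, DLX6, MSX1, MSX2, TFAP2A, TFAP2C and GATA3 are transcription factors of 4 families, and their mRNA was measured in the pregnant endometrium, the lining of the uterus, of dog (Canis lupus familiaris), armadillo (Dasypus novemcinctus) and platypus (Ornithorhynchus anatinus). Dog and armadillo are placental mammals (eutherians) and the platypus is a monotreme, which lays eggs. Each species was represented by 1 RNA sequencing library, with no untreated or non-pregnant tissue beside it. The labels used here give neither the stage of pregnancy nor the number of animals pooled. The 8 genes were picked by symbol from 17465 gene symbols, and were chosen by their measured levels, since MSX1 and DLX3 stood out in platypus, DLX5 in dog and TFAP2C in armadillo. The differences between species given here therefore describe the choice, and no test was made on them.

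The DLX and MSX genes encode homeodomain proteins, which bind DNA through a folded helix domain and respond to BMP signals in many developing tissues. DLX genes lie in neighbouring pairs in vertebrate genomes, and in mouse DLX5 and DLX6 are needed for uterine glands to form, while MSX1 and MSX2 act in the mouse uterus before implantation and are needed for the embryo to attach. TFAP2A and TFAP2C encode AP-2 factors of skin, neural crest and trophoblast, the outer cell layer of the embryo that builds the placenta, and GATA3 encodes a zinc finger factor of trophoblast, mammary epithelium and T helper cells.

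Of the 8 genes, 7 had a row under their symbol in each table, and 5 (DLX3, DLX6, MSX1, TFAP2A and TFAP2C) had one in all 3. DLX5 had no row under its symbol in platypus and GATA3 none in armadillo, so neither is taken as absent there. The armadillo table lists no gene without reads, so a missing row there may also stand for a gene without reads. Dog MSX2 was not listed under its symbol but as MSX2_CANFA, its UniProt entry name, and that row is given apart. The dog library held 13625465 reads, the armadillo library 13218476 and the platypus library 2243556. Levels are normalised CPM, meaning reads scaled to the library total (CPM) and then multiplied by a factor that brings the median gene to the same level in the 3 libraries. All levels and sums given are on this scale unless reads or plain CPM are named, and none is corrected for gene length. Every level is a single measurement, and each 95% interval covers counting error only. For a gene at 0 the limit is 3 reads, which is 0.175 normalised CPM for dog, 0.226 for armadillo and 1.60 for platypus, so low genes were least visible in platypus.

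At or above 2 plain CPM, before the scaling factor, stood 6 of the 7 listed factors in dog, beside 58.3% of all dog genes listed. In armadillo 5 of 7 factors reached that level, beside 81.5% of genes, and in platypus 4 of 7, beside 45.9%. The armadillo table lists no gene without reads, which raises its share. DLX3 was the factor below 2 CPM in dog, and DLX3 and DLX6 were those in armadillo. In platypus GATA3 was below it, and TFAP2A and TFAP2C were listed at 0.

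**Figure D1:**
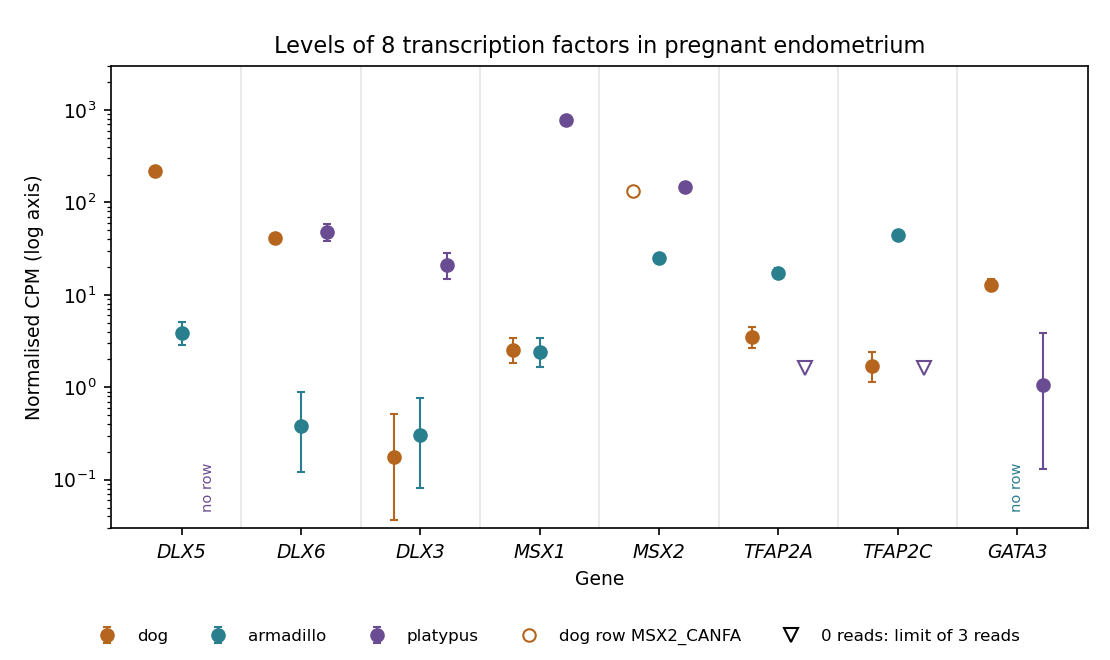
Level of each factor in dog, armadillo and platypus as normalised CPM on a log axis, with exact Poisson 95% intervals from 1 library per species. MSX1 stands near 772 in platypus and under 3 in both eutherians, DLX5 and DLX6 stand far higher in dog than in armadillo, and triangles mark the 3-read limit of genes listed at 0.

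DLX5 (ENSCAFG00000002191 in dog, ENSDNOG00000008778 in armadillo) was the factor with the most dog reads. It had 3778 reads in dog, or 221 normalised CPM (95% interval 214 to 228), and 51 reads in armadillo, or 3.85 (2.86 to 5.06). The ratio of dog over armadillo was 57.5 (95% interval 43.6 to 77.3), which is 5.84 on the log2 scale. Ranked from the highest ratio of dog over armadillo, with 1 normalised CPM added to each level, DLX5 was in place 38 of 8908 matched genes.

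DLX6 (ENSCAFG00000002187, ENSDNOG00000013530 and ENSOANG00000001698), the neighbour of DLX5, followed the same order of dog and armadillo. It had 710 reads in dog, or 41.5 normalised CPM (38.5 to 44.7), 5 reads in armadillo, or 0.377 (0.122 to 0.880), and 89 reads in platypus, or 47.6 (38.2 to 58.6). Dog and platypus were therefore both high for DLX6 and armadillo was low. The ratio of dog over armadillo was 110 (95% interval 47.0 to 340), and that of armadillo over platypus was 0.00792 (0.00251 to 0.0192). The ratio of dog over platypus was 0.872 (0.699 to 1.10), an interval that includes equal levels, and its log2 value of -0.20 became 0.39 when CPM was left unscaled.

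In the RefSeq gene table for dog (assembly UU_Cfam_GSD_1.0), which may not be the build behind the counts, DLX5 lies within the span of DLX6. The sources used here do not state that counting used the strand of the reads, so reads of DLX6, of transcripts antisense to it and of any exon shared with DLX5 cannot be told apart. Mapped bases per read were 34 in the dog table, and the treatment of reads that map to more than 1 family gene is not given in the sources used here.

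DLX3 (ENSCAFG00000016977, ENSDNOG00000019410 and ENSOANG00000010094), which in mouse is required for a working placenta and in humans acts in hair and skin, was a platypus gene in these libraries. It had 3 reads in dog, or 0.175 normalised CPM (95% interval 0.0362 to 0.513), 4 in armadillo, or 0.302 (0.0822 to 0.772), and 39 in platypus, or 20.9 (14.8 to 28.5). The dog and armadillo intervals overlapped, and the platypus interval lay above both. The log2 ratio was -6.89 (-9.23 to -5.24) for dog over platypus and -6.11 (-8.06 to -4.64) for armadillo over platypus, both resting on 3 or 4 reads in the eutherian library. DLX4, the neighbour of DLX3 with no other protein-coding gene between them in the dog gene table, was also near the detection limit, at 3 reads in dog and 9 in armadillo, and had no row under its symbol in platypus.

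MSX1 (ENSCAFG00000015705, ENSDNOG00000017911 and ENSOANG00000012557) showed the widest gap among the factors with reads in both libraries of a pair. It had 43 reads in dog, or 2.52 normalised CPM (1.82 to 3.39), 32 in armadillo, or 2.41 (1.65 to 3.41), and 1443 in platypus, or 772 (733 to 813). Dog over armadillo gave a ratio of 1.04 (0.644 to 1.70), an interval that includes equal levels. The log2 ratio was -8.26 (-8.73 to -7.82) for dog over platypus and -8.32 (-8.87 to -7.82) for armadillo over platypus. Ranked from the lowest ratio with 1 normalised CPM added, MSX1 was in place 31 of 9073 genes for dog over platypus and 9 of 7296 for armadillo over platypus. These comparisons share the platypus library, so they are not independent of each other.

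MSX2 (ENSDNOG00000009410 in armadillo and ENSOANG00000001111 in platypus), the relative that overlaps MSX1 in function in mouse, differed less. It had 333 reads in armadillo, or 25.1 normalised CPM (22.5 to 28.0), and 273 in platypus, or 146 (129 to 164), a ratio of armadillo over platypus of 0.172 (0.146 to 0.203). The dog row MSX2_CANFA (ENSCAFG00000016731) held 2297 reads, or 134 normalised CPM (129 to 140). Set against the symbol-matched rows, this gave a dog over armadillo ratio of 5.35 (4.77 to 6.02) and a dog over platypus ratio of 0.920 (0.811 to 1.05). Dog and platypus were thus both high for MSX2, as they were for DLX6, whereas platypus alone was high for MSX1.

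TFAP2C (ENSCAFG00000011996, ENSDNOG00000014671 and ENSOANG00000009253), which in mouse maintains trophoblast, was highest in armadillo. It had 29 reads in dog, or 1.70 normalised CPM (1.14 to 2.44), 597 in armadillo, or 45.0 (41.5 to 48.8), and 0 in platypus. The ratio of dog over armadillo was 0.0377 (0.0250 to 0.0547), which is -4.73 on the log2 scale. Armadillo was at least 28.1-fold higher than platypus when the platypus count of 0 was set to 3 reads. The dog level lay so close to the platypus limit, at a bound of 1.06-fold, that a difference between them was not detectable at this depth.

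TFAP2A (ENSCAFG00000009658, ENSDNOG00000025891 and ENSOANG00000007183), which acts in neural crest and epidermis, had the same order at lower contrast. It had 60 reads in dog, or 3.51 normalised CPM (2.68 to 4.52), 229 in armadillo, or 17.3 (15.1 to 19.7), and 0 in platypus. The ratio of dog over armadillo was 0.203 (0.150 to 0.271). On the scale with 1 normalised CPM added its log2 value was -2.02, just past the 4-fold limit, and it fell short of that limit at -1.76 with unscaled CPM, -1.91 with TMM scaling and -1.70 with totals over genes matched in all 3 tables. Armadillo was at least 10.8-fold and dog at least 2.19-fold higher than the 3-read limit of platypus.

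The zeros of platypus need care, because some ribosomal protein genes were also listed at 0 there, as in dog. Of 51 ribosomal protein genes with a row in platypus 7 (13.7%) were at 0, and of 42 in dog 6 (14.3%) were. These genes were picked by the form of their symbols, and whether every cell uses each of them was not checked. TFAP2A, TFAP2B, TFAP2C, TFAP2D and TFAP2E were all 5 listed at 0 in platypus, beside 42.4% of all 18481 platypus genes. The cause of these zeros was not tested.

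GATA3 (ENSCAFG00000005019 in dog and ENSOANG00000015442 in platypus) could be compared between dog and platypus. It had 221 reads in dog, or 12.9 normalised CPM (11.3 to 14.7), and 2 in platypus, or 1.07 (0.130 to 3.86). The ratio of dog over platypus was 12.1 with a wide interval of 3.31 to 100.4, because the platypus value rests on 2 reads. The gene passed the 4-fold limit with 1 normalised CPM added to each level, and did not pass it with 4 added. GATA3 is also a T cell gene, and the T cell markers in dog summed to 0.877 normalised CPM over the 6 of 8 listed. There IL7R had 7 reads, CD2 had 5, CD3D, CD3G and CD5 had 1 each, and TRAT1 had 0. In armadillo all 8 of these markers were listed and summed to 69.7 normalised CPM, with IL7R at 34.3 and CD3E at 14.2. In platypus 4 of the 5 listed (CD3D, CD3G, CD4 and CD5) were at 0. IL7R, with 3 reads, supplied the whole platypus sum of 1.60. The part of T cells in the GATA3 levels was not tested.

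Counted against a limit of 4-fold, with 1 normalised CPM added to each level and the higher library at 5 or more, the factors split by species pair. Between dog and armadillo, 2 of 6 matched factors were higher in dog (DLX5 and DLX6), beside 9.76% of all 8908 matched genes, and 2 were higher in armadillo (TFAP2A and TFAP2C), beside 15.2%. Between dog and platypus, 1 of 6 was higher in dog (GATA3), beside 27.3% of 9073 genes, and 2 were higher in platypus (DLX3 and MSX1), beside 13.5%. Between armadillo and platypus, 2 of 6 were higher in armadillo (TFAP2A and TFAP2C, both against a platypus count of 0), beside 34.0% of 7296 genes, and 4 were higher in platypus (DLX3, DLX6, MSX1 and MSX2), beside 13.2%. The median log2 ratio of the matched factors was -0.05 for dog over armadillo, against -0.20 over all matched genes. It was 0.62 for dog over platypus, against 0.25, and -3.28 for armadillo over platypus, against 0.89. Both medians against platypus include TFAP2A and TFAP2C at 0 there. Over the 4 factors with reads in both libraries, the median turned to -2.20 for dog over platypus, against -0.0076 over all genes with reads in both, and was -4.61 for armadillo over platypus, against 0.18. The genes were chosen on these contrasts, so nothing is read from the counts.

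**Figure D2:**
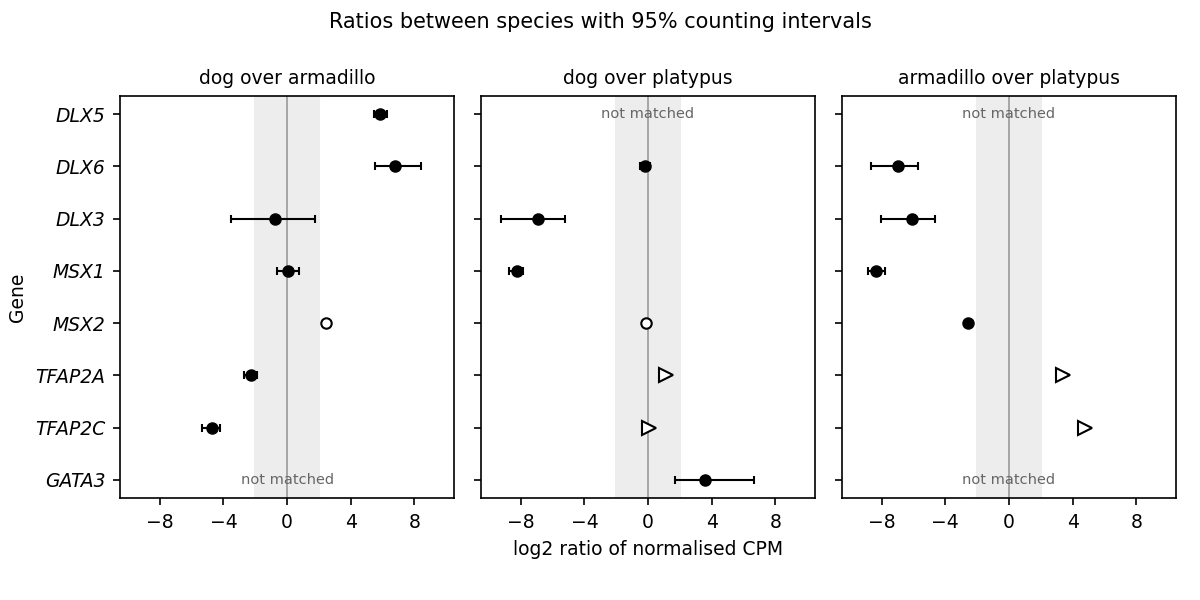
Log2 ratios of normalised CPM between species for each factor, with exact 95% counting intervals; the shaded band marks differences within 4-fold, open circles use the dog row MSX2_CANFA, and open triangles are lower bounds against a platypus count of 0. MSX1 lies near -8.3 in both comparisons with platypus, and DLX5 and DLX6 lie at 5.84 and 6.78 for dog over armadillo.

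Levels of different genes can be compared only per gene length, and among these tables the dog one allows it. Its deposited relative abundance equals reads divided by a gene model length and a constant, as the lengths came out whole within 0.1 bases for 100% of the 5260 genes that had over 500 reads, a whole deposited read number and an abundance above 0. On this length-scaled dog scale DLX5 stood at 119.9, in place 654 of 19290 genes or the top 3.39%, and MSX2_CANFA at 46.8 and DLX6 at 43.7 in the top 10.7% and 11.5%. GATA3 followed at 7.50, beside a median of 7.76 over the 15085 dog genes above 0. MSX1 (2.72), TFAP2A (2.04), TFAP2C (0.922) and DLX3 (0.153) lay under that median.

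Per length, dog DLX5 was 2.74 times DLX6 and 781 times DLX3, and dog MSX2_CANFA was 17.2 times MSX1. The ratio to DLX3 rests on 3 reads of DLX3, so its size is only rough. DLX5 was thus the leading DLX gene of dog and MSX2_CANFA the leading MSX row, on both the read and the length-scaled measure. The dog models were 1427 bases long for DLX5, 2224 for MSX2_CANFA, 735 for DLX6 and 717 for MSX1. Model lengths of 6 of the 7 factors listed by symbol were multiples of 3, as for a coding sequence alone, against 59% of all 5644 dog genes above 500 reads. DLX5 was the exception, and the MSX2_CANFA length was not a multiple of 3 either. GATA3, TFAP2A, MSX1, TFAP2C and DLX3 had 221 reads or fewer, so the factors and the genes above 500 reads are not a like comparison. How much of each model is untranslated is not given in the sources used here. Model lengths for armadillo and platypus are not used here, so the ratios between species contain any difference in length.

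**Figure D3:**
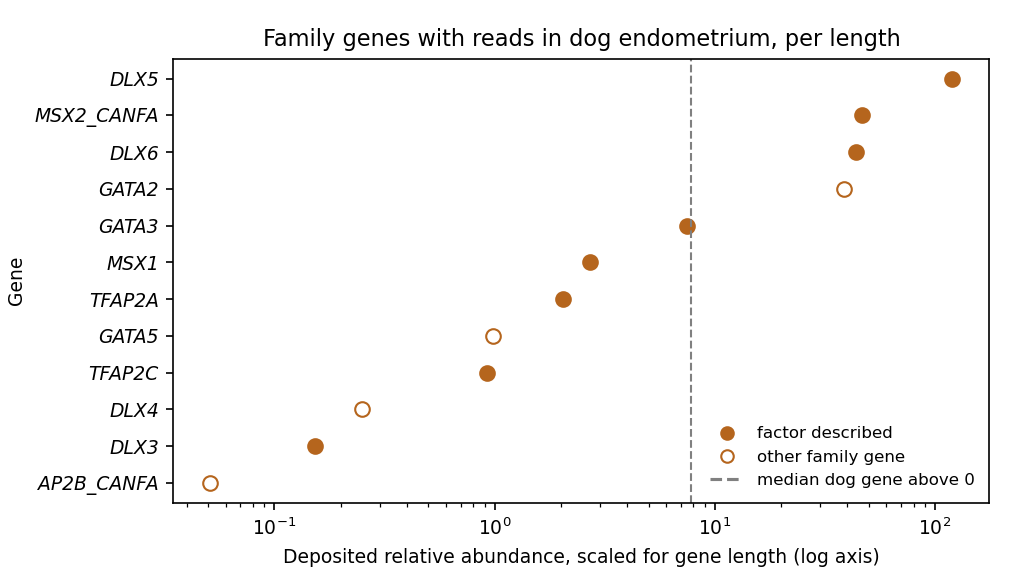
Deposited length-scaled relative abundance in the dog library, on a log axis, of the described factors (filled) and other family genes (open) that had reads. DLX5 leads at 119.9, MSX2_CANFA, DLX6 and GATA2 follow between 38.7 and 46.8, and the dashed line marks the median of 7.76 over dog genes above 0.

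The other members of these families were mostly at or near 0. DLX1 was listed at 0 in dog and platypus with 2 reads in armadillo, and DLX2 was at 0 in dog and platypus. TFAP2D was at 0 in dog and platypus, TFAP2E had 3 reads in armadillo, and the dog row AP2B_CANFA, whose name matches the TFAP2B synonym AP-2B, had 2 reads. GATA1 was at 0 in dog, GATA4 was at 0 in platypus as was GATA4_CANFA in dog, and GATA5 had 26 reads in dog and 0 in platypus. GATA6, a factor of endoderm and other tissues, had 59 reads in platypus, or 31.6 normalised CPM, and no row under its symbol in the other tables. GATA2, which works with the progesterone receptor in the mouse uterus, was the exception among the relatives. It stood at 72.1 normalised CPM (68.2 to 76.3) in dog and 114.6 (108.9 to 120.5) in armadillo, a ratio of dog over armadillo of 0.629 that did not pass the 4-fold limit. Per length, dog GATA2 was 5.16 times dog GATA3. No matched relative passed 4-fold between dog and armadillo (0 of 3), beside 9.76% of all matched genes higher in dog and 15.2% in armadillo. DLX4 and GATA2 alone had reads in both of these libraries. Only GATA2 could have passed, since DLX1 and DLX4 lay below 5 normalised CPM in both. Against platypus no relative had reads in both libraries, so the 4 pairs with dog and the 2 with armadillo gave no ratio.

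Proteins that bind these or related factors were mixed. The list held CITED coactivators and KCTD inhibitors of AP-2, FOG partners of GATA factors, and general corepressors and acetyltransferases. Among its 14 genes, the comparison of dog with armadillo had 0 of 7 matched genes higher in dog, beside 9.76% of all matched genes, and 1 higher in armadillo, beside 15.2%. Against platypus, 2 of 8 genes were higher in dog, beside 27.3%, with 2 higher in platypus, beside 13.5%. In the last pair, 2 of 7 were higher in armadillo, beside 34.0%, with 2 higher in platypus, beside 13.2%. KCTD1, which represses AP-2 activity, stood at 5.50 normalised CPM in dog, with 40.1 in armadillo and 432 in platypus. LDB1, an adaptor of GATA complexes and of LIM-homeodomain proteins, a family apart from DLX and MSX, stood at 63.3 in dog. It stood at 77.5 in armadillo and 431 in platypus. EP300, a histone acetyltransferase, was lowest in platypus, at 210 in dog, with 285 in armadillo and 19.3 in platypus.

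Genes of BMP and WNT signalling, which act upstream and downstream of MSX and DLX factors, were lower in dog than in armadillo in 4 of 8 matched cases, beside 15.2% of all matched genes, and higher in 1, beside 9.76%. Between dog and platypus 0 of 8 were higher in dog, beside 27.3%, and 2 in platypus, beside 13.5%. Between armadillo and platypus 3 of 11 were higher in armadillo, beside 34.0%, and 1 in platypus, beside 13.2%, so both counts were below those shares. The ligand gene BMP2 stood at 2.34 normalised CPM in dog, with 76.0 in armadillo and 64.2 in platypus. ID1, a direct target of BMP signals, stood at 14.4 in dog and 171 in armadillo, and ID2 stood at 923 in platypus. ID3 stood at 96.3 in armadillo and was listed at 0 in platypus. The median log2 ratio of this list was -2.33 for dog over armadillo, against -0.20 for all matched genes. The 4 genes lower in dog included CHRD, at 7.72 in dog and 58.1 in armadillo, and FST, at 7.72 and 133. Both encode secreted inhibitors of BMP or activin ligands. The count and the median thus mix signals with their inhibitors, and the direction of BMP signalling was not tested.

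BMPR1B, a BMP receptor gene of the same list that is described after its values were seen, had the order of DLX6. It stood at 12.0 normalised CPM in dog, with 0.0754 (1 read) in armadillo and 13.9 in platypus. WNT5A, which MSX1 and MSX2 repress in the mouse uterus, stood at 8.37 in armadillo and 33.2 in platypus, which did not pass the 4-fold limit, and had no row under its symbol in dog. It was also picked after its values were seen.

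Trophoblast genes are background for TFAP2C and GATA3, because endometrium of pregnancy can carry placental cells. Of the 13 trophoblast regulators, 1 of 5 matched genes was higher in dog, beside 9.76% of all matched genes, and 0 in armadillo, beside 15.2%. Against platypus, 4 of 9 were higher in dog, beside 27.3%, with 1 higher in platypus, beside 13.5%. Another 2 of 6 were higher in armadillo, beside 34.0%, with 0 higher in platypus, beside 13.2%. KLF5, also a factor of simple epithelia, stood at 345 normalised CPM in dog, with 7.16 in armadillo and 22.5 in platypus. PPARG stood at 69.0 in armadillo and 3.74 in platypus, with no row under its symbol in dog. TEAD4 stood at 21.4 in dog against a count of 0 in platypus, and OVOL1 at 19.1 in dog and 1.60 in platypus. ARID3A, the highest of these regulators in platypus, stood at 44.3 in dog and 31.6 in platypus, not past 4-fold. TEAD4, OVOL1 and ARID3A had no row under their symbols in armadillo. VGLL1 stood at 9.01 in dog and 10.8 in armadillo against a count of 0 in platypus. HAND1 stood at 1.23 in dog, with 7.54 in armadillo and 13.9 in platypus. CDX2 had 2 reads in dog and 0 in platypus, EOMES 0 in dog and 2 in platypus, ELF5 1 read in dog, with 23 in armadillo and 0 in platypus, and GCM1 3 in armadillo and 0 in platypus. Among the trophoblast products, PGF, a placental growth factor, stood at 16.7 normalised CPM in dog (286 reads), with 53 reads in armadillo and 1 read in platypus, and PAPPA, a protease of IGF binding proteins, at 12.7 in dog, with 12.2 in armadillo and 0 in platypus. Of the 10 products 2 were listed in dog, 3 in armadillo and 4 in platypus. Whether cells of the placenta contributed to the factor levels was not tested.

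Markers of other cell types also differed between the libraries, and their part in the factor levels was not tested. The 4 simple epithelial markers found in all 3 tables (EPCAM, KRT7, ELF3 and ESRP1) summed to 1986 normalised CPM in dog, with 588 in armadillo and 31.0 in platypus, where ELF3 was at 0. The full list of 9 summed to 2149 in dog (5 listed), 874 in armadillo (6 listed) and 38.5 in platypus (6 listed). KRT7 stood at 1741 in dog, with 536 in armadillo and 2.67 in platypus, EPCAM at 134 in dog, with 7.69 in armadillo and 0.535 in platypus, and KRT18 stood at 279 in armadillo, which alone had a row under that symbol. KRT7 made up most of the dog and armadillo sums. ESRP1, a splicing factor of epithelia, had another order, at 46.8 in dog, with 7.16 in armadillo and 27.8 in platypus, and supplied most of the platypus sum. Stratified epithelial genes, partners of DLX3, TFAP2A and GATA3 in skin, had sums of 96.9 in dog, with 57.5 in armadillo and 16.0 in platypus over the 5 found in all tables, with KRT5 at 0 in dog and GRHL3 at 0 in platypus. GRHL2 stood at 69.0 in dog, with 6.03 in armadillo and 9.63 in platypus, and supplied most of the dog sum. TP63 and KRT5 of the same list were instead highest in armadillo. TP63 stood at 0.643 in dog, with 4.90 in armadillo and 0.535 in platypus, and KRT5 at 6.64 in armadillo and 1.60 in platypus. Over all stratified rows listed, the sums were 272 in dog (7 of 8 listed), 60.6 in armadillo (6 of 8) and 853 in platypus (6 of 8). PERP, with no row under its symbol in armadillo, supplied most of the other sums, at 175 in dog and 837 in platypus.

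Stromal, muscle and vessel markers that could be compared were lower in dog than in armadillo, except HAND2. HAND2, a stromal factor, stood at 19.7 normalised CPM in dog and 3.62 in armadillo. Among vessel markers ESAM alone (1 of 7) had a row in both, at 8.25 in dog and 444 in armadillo. LUM and COL3A1, the stromal markers found in all tables, summed to 499 normalised CPM in dog, with 7930 in armadillo and 1853 in platypus. Over all rows listed, the sums were 519 in dog (3 of 8 listed), 21762 in armadillo (7 of 8) and 8389 in platypus (6 of 8), with VIM at 10198 in armadillo and 388 in platypus and COL1A1 at 1889 in armadillo and 9.09 in platypus. The stromal markers did not share an order, since LUM stood at 72.8 in dog, with 331 in armadillo and 1500 in platypus, and COL3A1 at 426 in dog, with 7598 in armadillo and 353 in platypus. DCN was also higher in platypus, at 1662 in armadillo and 6120 in platypus, although not past 4-fold. Smooth muscle markers summed to 36.4 in dog (4 of 6 listed), 25043 in armadillo (4 of 6) and 19898 in platypus (5 of 6). Among them stood MYH11 at 1.29 in dog, with 10768 in armadillo and 332 in platypus, CNN1 at 0.175 in dog and 1378 in platypus, TAGLN at 17.3 in dog and 10964 in armadillo, and ACTA2 at 161 in armadillo and 13562 in platypus. Endothelial markers summed to 130.4 in dog (3 of 7), 2488 in armadillo (4 of 7) and 24.6 in platypus (6 of 7). These sums add different genes in each library, so they are not a like comparison. VWF, at 1359 in armadillo, and KDR, ESAM and TEK were at 0 in platypus. CDH5, another endothelial marker, stood at 24.7 in dog and 24.1 in platypus (45 reads), where it supplied nearly all of the sum, and TIE1 stood at 97.4 in dog and 0.535 in platypus. In such bulk tissue, fewer cells of a type and less RNA per cell cannot be told apart.

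The genes most like a factor were sought over the 3 libraries by the distance between centred log2 profiles, with 1 normalised CPM added. Candidates had 10 reads or more in every library. DLX3, with 3 reads in dog and 4 in armadillo, and TFAP2C, with 0 in platypus, did not reach that limit themselves. Genes as low as these 2 factors were in those libraries could therefore not be found. The platypus point of TFAP2C is the added 1 normalised CPM alone, so its distances depend on that addition. The addition moved the DLX3 log2 ratio from -6.89 to -4.22 for dog over platypus. For armadillo over platypus it moved from -6.11 to -4.07, so the DLX3 distances depend on that addition as well. For MSX1 the most alike genes were OGN (osteoglycin, a matrix proteoglycan), IQGAP2 (a scaffold protein) and RCN2 (reticulocalbin, which binds calcium). Their distances were 0.71, 0.95 and 0.96, out of 3312 genes. OGN stood at 0.585 normalised CPM in dog, with 1.21 in armadillo and 248 in platypus. For DLX3 they were XPR1 (a phosphate exporter), EDEM3 (a mannosidase of the endoplasmic reticulum) and DSCR3, out of 3313 genes, each at a distance of 0.15. For TFAP2C they were SNRK (a kinase), IGSF3 and FAM171A1, at distances of 0.16, 0.23 and 0.25, and SNRK stood at 16.9 in dog, with 354 in armadillo and 5.88 in platypus. A profile over 3 libraries has little room to differ, and the closeness is a description only. DLX5 had no profile because platypus lacked a row under its symbol.

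**Figure D4:**
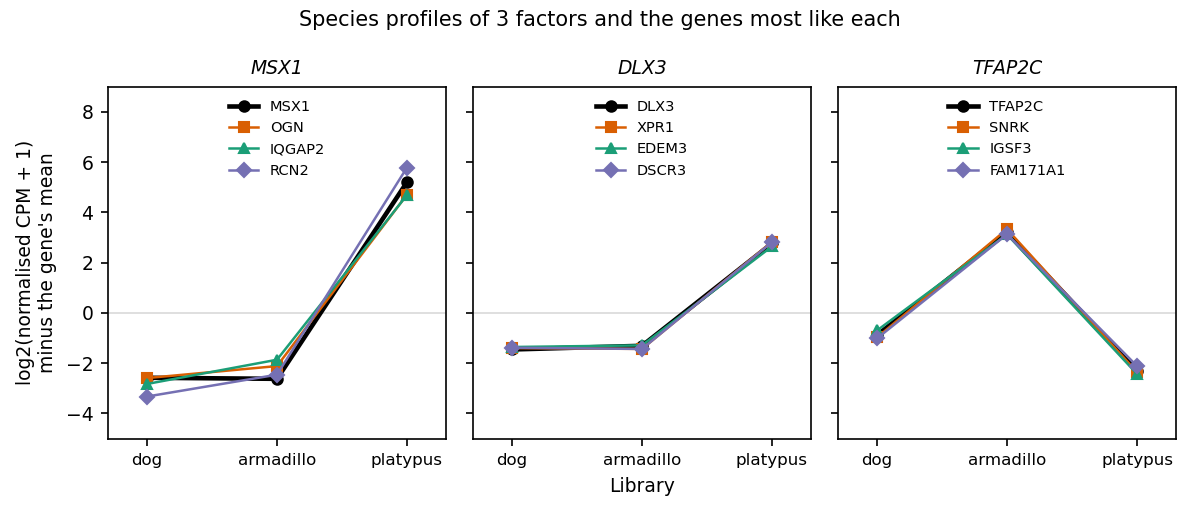
Centred log2(normalised CPM + 1) in the dog, armadillo and platypus libraries for MSX1, DLX3 and TFAP2C (black) and the 3 genes most like each (coloured), with 0 as each gene's own mean. MSX1 and DLX3 peak in platypus and TFAP2C in armadillo, with TFAP2C at a count of 0 in platypus. The DLX3 companions follow it at a distance of 0.15 on this scale, where DLX3 rests on 3 reads in dog and 4 in armadillo.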

How the data were processed

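Column-purified, DNase-treated RNA was sequenced on Illumina libraries, per the labels' protocols. The submitters' processing notes name Bowtie. Its version, the builds and the annotation were not stated in the sources used here. Dog values were deposited as estimated counts, which equal mapped bases divided by 34. Of these, 516 were not whole and were rounded. The dog table's mapped bases and relative abundance were treated as deposited scores. The armadillo and platypus values were deposited as raw counts, per the file headers. A totals line in the dog table and one in the armadillo table were left out.

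Symbols were matched in upper case where used once per table, and 82 of 1347 dog accession names took a symbol from the dog RefSeq table. In all, 12505 genes matched in at least 2 tables. CPM was multiplied by median-of-ratios factors (0.797 dog, 0.997 armadillo, 1.20 platypus) over the 3496 genes that reached 2 CPM in every library. Level intervals are exact Poisson, and ratio intervals exact and conditional on both counts. Without molecular identifiers reads may repeat a molecule, so intervals cover counting error only. No p-value was computed, as each species had 1 library. The steps were tested on simulated data. The factors and gene lists were chosen with earlier results of these data known. The text names all 8 factors and their relatives, and from each other list the 2 highest genes and the 2 largest ratios past 4-fold, with some further list genes. The values of 1 list gene are not reported here. Python 3.11.15, pandas 2.3.3, scipy 1.17.1 and edgeR 4.0.16 (TMM factors only) were used.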

Additional observations from a re-analysis of the deposited data

Results flagged for a closer look

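The dog row MSX2_CANFA held 2297 reads, far above the 3-read limit, although no symbol-matched comparison uses it. It was found because the row carries a UniProt entry name in place of the symbol MSX2.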

How the results depend on the processing

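Leaving CPM unscaled moved the log2 ratio by 0.32 for dog over armadillo, 0.59 for dog over platypus and 0.27 for armadillo over platypus. A scaling moves all log2 ratios of a pair by the same amount, here at most 0.59. No factor ratio past 4-fold could therefore change sign. The 14 factor ratios with reads in both libraries were recomputed under 4 other scalings and with UniProt entry names added. Adding the entry names left all 14 unchanged. Counting those, 65 recomputed ratios stayed within the counting interval of the reported one. The 5 that left it were MSX1 and DLX6 for dog over platypus with unscaled CPM and with totals over matched genes, and MSX2 for armadillo over platypus with unscaled CPM. The count of factors past 4-fold ranged from 3 to 5 (4 as reported) for dog over armadillo, from 1 to 4 (3) for dog over platypus and from 2 to 6 (6) for armadillo over platypus. The counts of 1 and 2 came from requiring 2 CPM in both libraries, which left 2 factors to compare in each pair. GATA3, dog over platypus, did not pass with a pseudocount of 4 or an 8-fold limit. With a limit of 5 CPM the number of factors expressed was 3 in dog and 3 in armadillo. No paired analysis was possible because each species has 1 library, and no library could be left out for the same reason. Depth limits platypus most, where 1 read equals 0.535 normalised CPM.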
